A study of Drosophila melanogaster with 3 samples.

Results

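The genes described here are the 92 protein-coding genes for proteins of the cytoplasmic ribosome, 54 of the large subunit and 38 of the small subunit, among 13945 coding genes on the 6 chromosome arms. They were taken by name, as symbols that start with RpL or RpS followed by a digit, P or A, so that the P0, P1 and P2 stalk proteins are included and mitochondrial ribosomal proteins are not. Symbols were from Ensembl release 115 (BDGP6.54), on the Release 6 genome, dm6. Their promoters were examined for sites of Traffic jam, encoded by tj, in Drosophila melanogaster. Chromatin was taken from whole adult females of unstated age that stably express a fusion of tj with GFP at its C terminus (tj-eGFP), and was immunoprecipitated against GFP. The samples were 1 group of 3 biological replicates, all carrying the transgene, and untagged flies were not analysed here. Whole flies mix all tissues, so a site cannot be assigned to a cell type, and fewer cells with a site and less occupancy per cell cannot be told apart.

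Ribosomal proteins assemble on ribosomal RNA in the nucleolus, and each is needed in about the amount of the others. In flies their genes share a compact promoter in which transcription starts at a pyrimidine-rich TCT element in place of the usual initiator, and many of them carry small nucleolar RNAs (snoRNAs) in their introns. Loss of a single copy of many of them gives the Minute phenotype of slow growth and short bristles. A subset has a second, paralogous copy, and some of these copies, such as RpS5b, RpS19b, RpS10a and RpL22-like, are known for expression in the germline. Traffic jam is a large Maf factor of the bZIP class, known for its role in the somatic cells of the gonad. Large Maf factors are known to bind a palindrome built around the core TGCTGAC.

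The authors' values are positions and signal of called peaks. The reproducible list, made with an irreproducible discovery rate (IDR) step, held 10688 summits, which are the 10688 strongest of the 30000 peaks of the pooled replicates. A gene is called bound where a summit of that list lay within 1000 bp of any of its transcription start sites (TSSs). Relative signal is the highest value that a replicate list gives within 200 bp of an IDR summit, divided by that replicate's median over IDR summits found in all 3 replicates, so that 1 is a typical site. Read depth is unknown.

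Most ribosomal protein genes were bound. An IDR summit lay near a TSS of 78 of the 92 genes (84.8%), against 36.4% of all coding genes. The large subunit had 45 of 54 genes bound (83.3%) and the small subunit 33 of 38 (86.8%). On the X chromosome all 14 genes were bound, on 3R 21 of 23, on 3L 12 of 14, on 2L 14 of 19 and on 2R 16 of 21, and RpS3A, the 1 member on chromosome 4, was bound too. Shares of all coding genes by arm are not given here, so no difference between arms is drawn from these counts. In the relaxed lists, which were made to include background, 88 members had a summit in replicate 1 (58.3% of all coding genes), 87 in replicate 2 (57.1%) and 87 in replicate 3 (60.4%). Genes are not replicates, so no test was made over them, and these shares are descriptions.

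Other genes of protein synthesis were bound less widely in these counts. Of the mitochondrial ribosomal protein genes, which serve the organelle's own ribosome, 41 of 73 (56.2%) were bound. Among genes of translation initiation, elongation and release factors the count was 32 of 54 (59.3%), and among ribosome assembly genes 24 of 34 (70.6%). The gene sta encodes the small subunit protein SA and falls outside the name rule. Its summit lay at −2 bp, with relative signals of 1.35, 1.20 and 0.84 in replicates 1, 2 and 3.

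The summits at these promoters lay close to the TSS. The strongest summit of a bound member lay within 100 bp of a TSS in 58 of 78 genes (74.4%), against 32% of all bound coding genes. The median position was 37 bp upstream (−37 bp, quartiles −84 and −7.5), while over all bound coding genes it was −93 bp. Summits were upstream or at the TSS in 63 members (80.8%, and 68.0% of all bound coding genes) and downstream in 15. In 36 of 45 large-subunit genes (80%) and 22 of 33 small-subunit genes (66.7%) the summit was within 100 bp. The same share was 26.8% for mitochondrial ribosomal protein genes (11 of 41, median −139 bp) and 50% for translation factor genes (16 of 32, median 4 bp). By annotation, 21 of the 78 summits fell in a 5′ UTR, 3 in an intron, 0 in coding sequence and 54 outside the transcripts of the gene. The same annotation was not made for all bound coding genes, so these counts cannot be called particular to the members. Positions were also taken from each replicate's own strongest summit within 200 bp of the IDR summit. The median position was then −42 bp in replicate 1, −29 bp in replicate 2 and −35.5 bp in replicate 3.

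**Figure D1:**
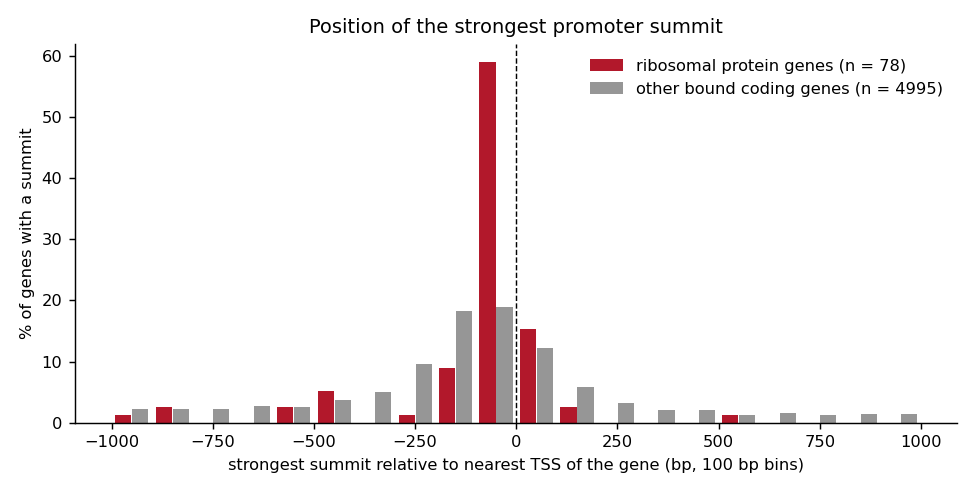
Position of the strongest promoter summit relative to the nearest TSS of its gene, in bins of 100 bp (x axis, upstream negative), as a percentage of genes with a summit (y axis), for the 78 bound ribosomal protein genes and the 4995 other bound coding genes. The bin just upstream of the TSS holds most of the ribosomal protein genes, while the other genes spread to both sides.

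Of the bound members 51 had 1 summit, 23 had 2 and 4 had 3. The share with 2 or more, 34.6%, was near the 39.7% of all bound coding genes. The 4 with 3 were RpL34b (−105, −312 and 899 bp), RpS28b (−25, −784 and 177 bp), RpS5a (−42, −244 and −904 bp) and RpS19a (−28, −379 and −660 bp). In each of them the strongest was the one nearest the TSS. Counting any summit, 63 members had one within 100 bp, a count not made for all bound coding genes.

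Signal at these promoters was moderate, and it varied between members more than between replicates of a member. The median relative signal over bound members was 1.93 in replicate 1, 1.33 in replicate 2 and 1.00 in replicate 3 (mean 1.42 ± 0.48, SD, n = 3), beside 1.06 ± 0.04 over all bound coding genes. Within replicates the members were higher in 2 of 3, as the medians over all bound coding genes were 1.11, 1.03 and 1.05. In replicate 3 they were not above. Single members ran from 0.41 to 8.19 in mean relative signal, with a median coefficient of variation of 25.2% over replicates. A mean above 1 was found in 54 members, and the share over all bound coding genes is not given here. By pooled signal 59 of the 78 were among the 5344 strongest IDR summits, as were 57.9% of all bound coding genes. Large-subunit genes had a mean of replicate medians of 1.59 ± 0.40 and small-subunit genes 1.24 ± 0.47. Within replicates the large-subunit median was the higher in 3 of 3, at 1.97, 1.62 and 1.18 against 1.76, 1.13 and 0.84. No test was made over the genes of the subunits.

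**Figure D2:**
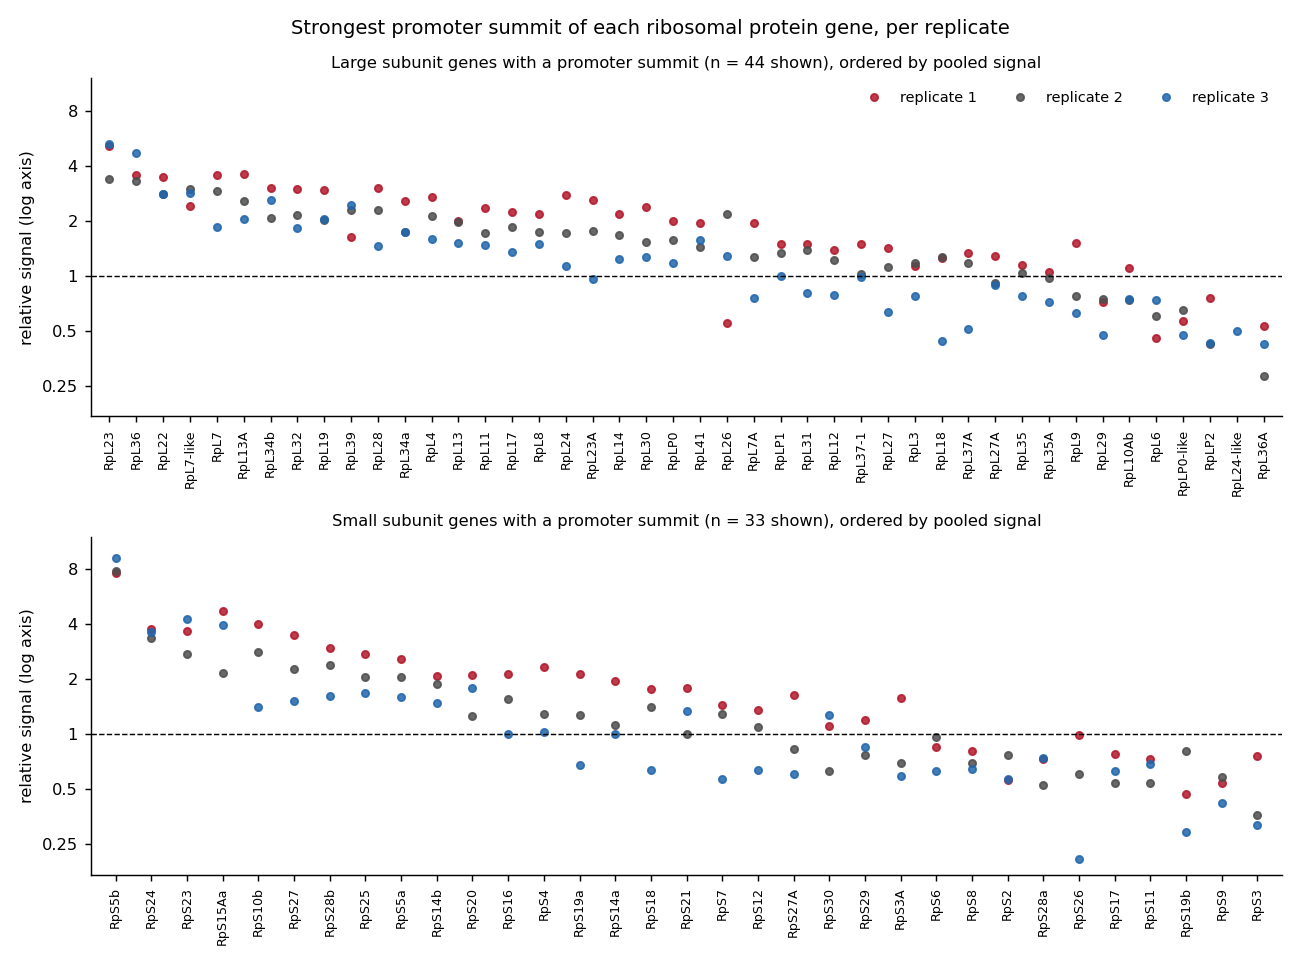
Relative signal of the strongest promoter summit (y axis, log scale, 1 is the median IDR summit) of the bound ribosomal protein genes but 1 (x axis, ordered by pooled signal), 1 point per replicate, large subunit above and small subunit below. RpS5b stands highest at 7.62, 7.77 and 9.17, and at most genes the replicate 1 point lies above the replicate 3 point.

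RpS5b had the strongest promoter summit of the family. It encodes a copy of the small-subunit protein uS7, which lies in the head of the subunit near the exit of the messenger. Its relative signal was 7.62 in replicate 1, 7.77 in replicate 2 and 9.17 in replicate 3 (8.19 ± 0.86, SD), rank 72 of the IDR list, in a peak on 3R from 14901471 to 14902386. The summit was 431 bp upstream of the TSS, outside the usual position. All 3 values were above every value of any other member.

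Several other strong summits lay more than 100 bp from a TSS. RpL23, a protein at the subunit interface, came next with 5.13, 3.37 and 5.22 (4.57 ± 1.04) at −140 bp. RpL36, a small protein of the large subunit, had 3.57, 3.31 and 4.71 at 106 bp, in a 5′ UTR. RpS24 had 3.73, 3.35 and 3.61 at −458 bp. These 3 genes had no replicate below 3, and replicate 2 was the lowest in each. RpS23, a protein of the decoding centre, had 3.65, 2.74 and 4.27 at −467 bp. RpS15Aa had 4.68, 2.15 and 3.93 at −575 bp, where CG15747 has the nearest coding TSS, and a second summit at −24 bp. In all, 12 members had their strongest summit more than 150 bp from a TSS. Their mean of replicate medians was 2.28 ± 0.13, against 1.35 ± 0.42 for the 66 members with the summit nearer. As the strongest of several summits was taken, the 2 sets differ by choice too. Most of the 12 distant summits also lay nearer the coding TSS of another gene, while few of the 66 did.

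Other genes among the 12 strongest had the following values. RpL22 had 3.45, 2.81 and 2.81 at −109 bp. RpL7 had 3.56, 2.90 and 1.86 at 25 bp, and RpL13A had 3.62, 2.56 and 2.05 at −98 bp. In both of these genes replicate 1 was the highest and replicate 3 the lowest. RpS10b had 4.0, 2.8 and 1.4 at −34 bp, the widest spread of this set. The summit of RpL7-like (2.39, 3.00 and 2.82 at −572 bp) lay closer to the neighbouring gene JhI-21.

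Bases around the RpS5b summit and the proximal promoters of RpS5b, RpL13A and RpS10b are shown because they hold the different kinds of site seen among strong members. Each is read 5′ to 3′ along the gene's strand, from the NCBI Release 6 assembly, and promoters run from 120 bp upstream to 20 bp into the transcript. Capitals mark the Maf core TGCTGAC or its reverse complement GTCAGCA, the site of the promoter factor DREF (TATCGATA) or the CTTT of a TCT initiator. The first stretch is chr3R:14901914-14902074, minus strand, and the palindromic Maf site matched it best with 2 mismatches. The others are chr3R:14901544-14901683, minus strand, chr3R:5624354-5624493, plus strand, and chrX:19597911-19598050, plus strand.
RpS5b summit: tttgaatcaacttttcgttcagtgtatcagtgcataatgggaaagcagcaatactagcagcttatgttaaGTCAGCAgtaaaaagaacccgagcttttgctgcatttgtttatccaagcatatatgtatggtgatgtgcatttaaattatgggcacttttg
RpS5b promoter: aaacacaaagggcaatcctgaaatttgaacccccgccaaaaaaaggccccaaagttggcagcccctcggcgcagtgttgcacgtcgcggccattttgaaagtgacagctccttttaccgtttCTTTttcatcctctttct
RpL13A promoter: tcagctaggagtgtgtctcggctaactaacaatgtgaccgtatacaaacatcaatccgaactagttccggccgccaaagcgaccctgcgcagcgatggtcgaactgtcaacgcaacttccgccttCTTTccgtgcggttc
RpS10b promoter: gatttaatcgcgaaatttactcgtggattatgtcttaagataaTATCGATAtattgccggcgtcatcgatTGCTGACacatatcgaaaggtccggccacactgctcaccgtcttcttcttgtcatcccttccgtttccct

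The core of RpS5b lay in the summit window and not in the proximal promoter, whose capitals mark the initiator alone. RpL13A showed the initiator with neither the full Maf core nor the DREF site in its promoter. Its first bases, TCAGC, are the reverse complement of GCTGA, a shorter part of the Maf core. In RpS10b the DREF site and the Maf core stood together upstream of the start. A match of letters describes the window and is not evidence of binding by the factor.

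Across the family the Maf core was no more common than elsewhere. It lay within 100 bp of 6 of the 109 member summits (5.50%), near the 5.10% of all 5846 promoter summits. All 6 were the strongest summits of their genes, RpS5b, RpS23, RpS15Aa, RpS10b, RpL19 and RpL24-like. The shorter GCTGA, which the core contains, was at 31.2% of member summits and 40.6% of all. Allowing up to 2 mismatches, the palindromic Maf site was at 1 member summit (0.917%), that of RpS5b, and at 1.68% of all promoter summits. Both strands were searched for each motif.

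Letters of general promoter factors were more frequent in these counts. TATCGATA, the DREF site, was at 23 of 109 member summits (21.1%) and at 4.40% of all promoter summits. The E-box CACGTG, bound by Myc and Max among others, was at 12 (11.0%) against 2.70%, with 16.4% of large-subunit and 4.17% of small-subunit summits. GGTCACACT, the core of Motif 1, which the factor M1BP binds, was at 7 (6.42%) against 2.34%. The GAGA repeat GAGAG was at 11 (10.1%) against 28.1%, the reverse order. In windows of 250 bases before the TSS and 50 after, whatever the summits, TATCGATA was in 28 of 92 members (30.4%) and 10.2% of coding genes, CACGTG in 15 (16.3%) and 5.30%, and TGCTGAC in 4 (4.35%) and 4.35%. CTTT with its C within 5 bp of a TSS, as in a TCT initiator, occurred in 58 of 92 members (63.0%) and 8.07% of coding genes, and 51 of those 58 were bound, near the share of all members. Of the other coding genes with these letters 43.9% were bound.

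**Figure D3:**
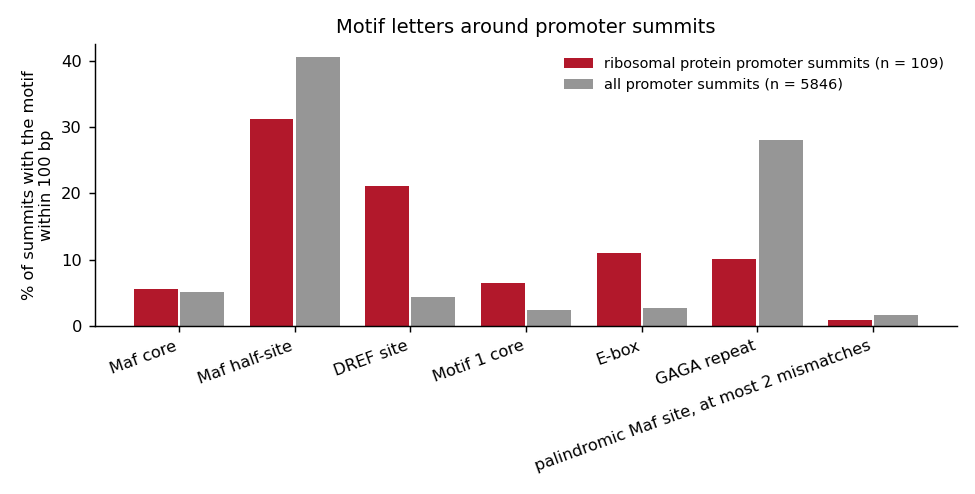
Percentage of summits (y axis) with each motif within 100 bp (x axis), for the 109 ribosomal protein promoter summits and all 5846 promoter summits. The Maf core bars are nearly level at 5.50% and 5.10%, the DREF site and E-box bars are taller for ribosomal protein genes, and the GAGA repeat bar is shorter.

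The replicates did not weigh these promoters alike. At 66 of the 77 bound members measured in both, relative signal was higher in replicate 1 than in replicate 3 (85.7%), against 50.5% of all bound coding genes. The median log2 ratio of replicate 1 over replicate 3 was 0.61 for members and 0.01 for all bound genes. This pattern was looked at after the values were seen. The widest gap was at RpS26, with 0.99, 0.61 and 0.21 in replicates 1, 2 and 3 (log2 ratio 2.26). RpS19a followed with 2.14, 1.27 and 0.68 (1.66). RpL26 went the other way, with 0.55, 2.18 and 1.28 (−1.22) at −995 bp, a summit nearer CG3902.

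The difference was seen mainly at proximal summits. Among the 65 members whose summit was at most 150 bp from a TSS and had a value in both replicates, 60 were higher in replicate 1 (median log2 ratio 0.70). Of the 12 with a more distant summit, 6 were, with a median of 0.02. For other coding genes with a summit within 150 bp the share was 49.7% and the median −0.01. Members that host snoRNAs were higher in replicate 1 in 26 of 26 cases, and members that host none in 40 of 51. Ribosome assembly genes were higher in 21 of 24 cases (median 0.45), mitochondrial ribosomal protein genes in 29 of 41 (0.30) and translation factor genes in 15 of 32 (−0.08). Other genes with a TCT initiator were higher in replicate 1 in 42.7% of cases (median −0.09). The deposited labels name no batch for the replicates, and any part of depth or sample handling in this difference was not tested.

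**Figure D4:**
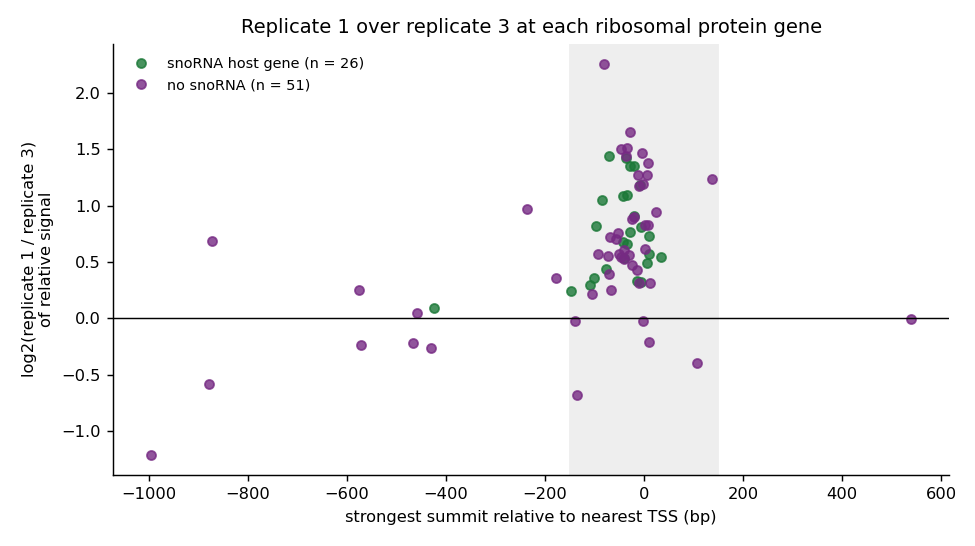
Log2 ratio of the relative signal in replicate 1 over replicate 3 (y axis) against the position of the strongest summit from the nearest TSS in bp (x axis), 1 point per bound ribosomal protein gene (n = 77), by whether the gene hosts a snoRNA. In the shaded zone, within 150 bp of the TSS, 60 of 65 points lie above 0, and outside it 6 of 12 do.

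Paralogous copies were compared within each replicate. With 3 replicates the exact two-sided sign-flip permutation test cannot give p below 0.25, so no difference could pass 0.05. RpS5b exceeded RpS5a (2.56, 2.04 and 1.60 at −42 bp) by 2.01 ± 0.48 on the log2 scale (exact p = 0.25, higher in 3 of 3 replicates). The groups of values did not overlap. RpS5a is the copy with snoRNAs in its introns, 14 of them, and its summit was proximal. Summed over all promoter summits the difference was 1.03, as RpS5a had 3 summits and RpS5b had 1.

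In the RpS28, RpS19 and RpLP0 pairs the same copy was also higher in every replicate. RpS28b, a small protein near the messenger exit, had 2.96, 2.37 and 1.61 and RpS28a 0.73, 0.53 and 0.73, a log2 difference of 1.77 ± 0.56 (exact p = 0.25). The RpS28a summit was at 539 bp and nearer Mgat2, and with a window of 2000 bp, which brings in other summits, the difference changed sign to −0.32. Summed over all promoter summits it was 2.97. RpS19a, whose human counterpart is mutated in Diamond-Blackfan anaemia, had 2.14, 1.27 and 0.68, and RpS19b 0.47, 0.81 and 0.29. The log2 difference was 1.35 ± 0.78 (exact p = 0.25), and the values of the 2 genes overlapped between replicates. Summed over all promoter summits, the log2 ratio of RpS19b over RpS19a was −2.21. RpS19b's only summit lay at −873 bp, nearer CG5854. The stalk protein gene RpLP0 had 2.00, 1.56 and 1.18 and RpLP0-like, the counterpart of the yeast assembly factor Mrt4, 0.57, 0.65 and 0.47 (log2 difference 1.46 ± 0.31, exact p = 0.25), the latter at a summit nearer 14-3-3zeta. With a window of 2000 bp the log2 ratio of RpLP0-like over RpLP0 was −0.69.

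Other pairs were closer to each other by their strongest summits. RpL34b had 3.04, 2.07 and 2.61 and RpL34a 2.57, 1.73 and 1.73 (log2 difference 0.37 ± 0.20, exact p = 0.25). Summed over all promoter summits, of which RpL34b had 3 and RpL34a 1, the difference was 1.36. RpS14a and RpS14b are adjacent, near-identical copies on X, so reads could be split between them, and their values are uncertain. RpS14b had 2.06, 1.88 and 1.48 and RpS14a 1.95, 1.13 and 0.99 (log2 difference 0.47 ± 0.35, exact p = 0.25). RpL7 and RpL7-like, the counterpart of the yeast assembly factor Rlp7, had a log2 difference of −0.03 ± 0.59 for RpL7 (exact p = 0.75), with RpL7 higher in 1 of 3 replicates. Other settings gave a log2 ratio of RpL7-like over RpL7 from −0.89 to 0.67. RpL24 (2.75, 1.72 and 1.14 at −12 bp) could be set beside RpL24-like, the counterpart of yeast Rlp24, in replicate 3 alone, where RpL24-like had 0.50.

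**Figure D5:**
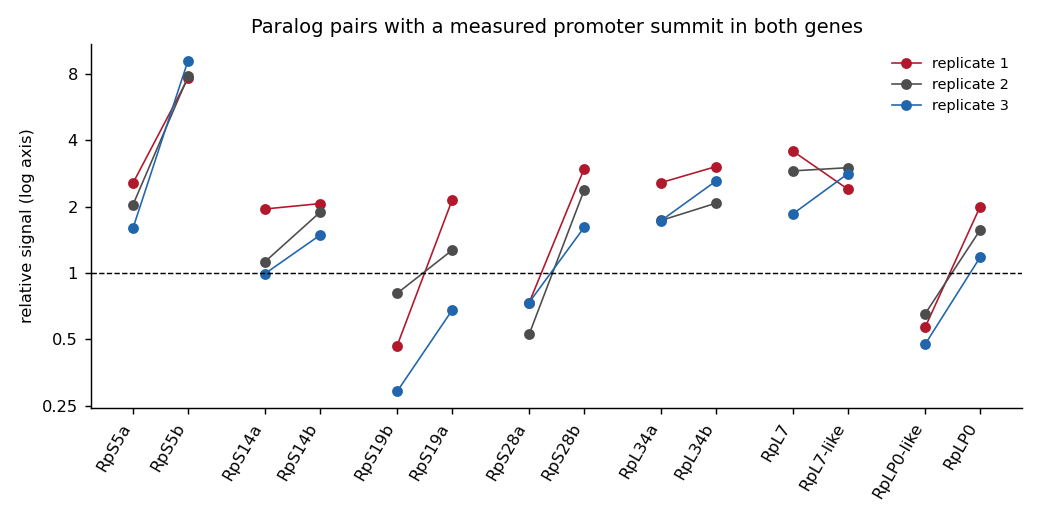
Relative signal of the strongest promoter summit (y axis, log scale, 1 is the median IDR summit) in paralog pairs (x axis), with a line per replicate joining the copies. In 6 of the 7 pairs all 3 lines run the same way, and in RpL7 and RpL7-like they cross.

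In 6 families 1 copy was unbound beside a bound one, and RpS28, described above, is among them. The unbound copies were RpS10a, RpS15Ab, RpS28-like, RpL10Aa, RpL37-2 and RpL22-like, and the bound ones RpS10b, RpS15Aa, both RpS28 copies, RpL10Ab, RpL37-1 and RpL22. RpL10Ab had 1.11, 0.73 and 0.75 at 9 bp. The nearest IDR summit to RpL10Aa was 49821 bp away, and no replicate list held one near its TSS.

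The promoters of a bound and an unbound copy, RpL10Ab and RpL10Aa, and of the RpS5a and RpL34a copies are shown to compare letters within families. Windows and capitals are as for the promoters above. Positions are chr3L:11822731-11822870, plus strand, chr3R:15037246-15037385, plus strand, chrX:17148245-17148384, minus strand, chr3R:26059248-26059387, minus strand, and for RpL34b chr3R:9401207-9401346, minus strand.
RpL10Ab promoter: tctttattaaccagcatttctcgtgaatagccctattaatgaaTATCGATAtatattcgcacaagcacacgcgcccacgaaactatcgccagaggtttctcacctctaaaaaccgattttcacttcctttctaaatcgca
RpL10Aa promoter: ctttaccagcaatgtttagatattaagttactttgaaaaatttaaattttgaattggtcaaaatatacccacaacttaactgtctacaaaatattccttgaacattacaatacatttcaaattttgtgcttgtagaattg
RpS5a promoter: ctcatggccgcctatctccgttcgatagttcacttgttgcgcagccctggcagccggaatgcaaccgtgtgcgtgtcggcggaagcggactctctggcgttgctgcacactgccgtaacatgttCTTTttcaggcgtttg
RpL34a promoter: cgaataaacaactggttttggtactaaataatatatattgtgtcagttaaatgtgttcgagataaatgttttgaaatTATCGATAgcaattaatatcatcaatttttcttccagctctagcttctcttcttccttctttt
RpL34b promoter: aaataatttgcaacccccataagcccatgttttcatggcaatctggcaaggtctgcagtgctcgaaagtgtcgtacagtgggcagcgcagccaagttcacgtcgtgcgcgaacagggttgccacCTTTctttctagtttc

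RpL10Ab held a DREF site and RpL10Aa held none of the letters searched. RpS5a, like RpS5b, showed the TCT initiator. RpL34a and RpL34b differed, with a DREF site in the first and the initiator in the second, although the signals of their strongest summits were close.

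Of the 14 unbound members, 10 had a summit of the pooled list near a TSS, with pooled signal from 48.3 to 202.8, all under the 215.6 of the weakest IDR summit. Bound members began at 218.0, so the call at this end turned on a narrow margin. RpL10 (pooled signal 202.8) lay just outside. Its highest replicate values within 1000 bp of a TSS, divided by the same replicate medians, were 0.69, 0.39 and 0.40. That window is wider than the 200 bp around an IDR summit used for bound members, so these values are not on the same measure. RpS13 (187.9), RpS15 (185.2), RpL5 (176.1), RpS28-like (163.6), RpL38 (163.2), RpL40 (147.4), RpL15 (99.8) and RpL21 (90.9) also had summits in all 3 relaxed lists. RpS10a (48.3) was in that of replicate 1 alone. RpL10Aa, RpL22-like, RpL37-2 and RpS15Ab were in none. RpL5, RpL15 and RpL38 are known for their place in or near heterochromatin, and their nearest IDR summits were 367950, 1253278 and 155435 bp away. For RpL10 and RpL21 the nearest were 150154 and 79133 bp away. How well reads map at any of these genes was not tested.

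The 5 weakest bound members lay just inside. RpL36A had 0.53, 0.28 and 0.43 (pooled signal 218.0) at −7 bp. RpS3, a protein of the messenger entry channel, had 0.75, 0.36 and 0.32 at 137 bp, in an intron. RpLP2, a stalk protein, had 0.76, 0.43 and 0.43 at 8 bp. RpS9 had 0.54, 0.58 and 0.42 at −101 bp. These 4 were below 1 in every replicate. RpL24-like was matched within 200 bp in replicate 3 alone, at 0.50.

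Some of the summits lay closer to a neighbouring gene. The strongest summit of 10 members (12.8%) had another gene's coding TSS nearest, against 29.5% of all bound coding genes. They included RpL13 (Dref), RpL26 (CG3902), RpL39 (Rap2l), RpL7-like (JhI-21), RpLP0-like (14-3-3zeta), RpS14a (Dhdds), RpS15Aa (CG15747), RpS19b (CG5854) and RpS28a (Mgat2). Of these, RpL26, RpL39, RpS14a and RpS15Aa also had a summit within 100 bp of their own TSS, at −74, −11, −35 and −24 bp, and in RpL13 and RpLP0-like the strongest summit was itself that near, at −70 and −66 bp. RpL13 and Dref, the gene of the DREF factor, start 84 bp apart in opposite directions and share a summit with 1.99, 1.96 and 1.51. A divergent coding gene within 500 bp was present at 36 members, of which 34 were bound (94.4%), and 44 of the 56 others were bound (78.6%). The same shares over all coding genes are not given here, so these shares cannot be called particular to the members.

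Genes listed as regulators or partners of ribosomal protein output were examined beside the family. Of 16 regulators and partners, 15 had a promoter summit and bic did not, beside 36.4% of all coding genes. The list was chosen with earlier results of these data known, so this count is a description only. The strongest was at larp, whose human counterpart LARP1 binds messengers that start with a pyrimidine tract, with 4.91, 5.45 and 5.73 (5.36 ± 0.42). Xrp1, a bZIP factor known from the response to Minute mutations, had 4.26, 3.39 and 5.09 (4.25 ± 0.85). Trf2, a TBP-related factor known to act at TCT promoters, had 3.52, 3.04 and 4.46, at 737 bp and nearer lawc. Mnt, the Myc antagonist, had 2.07, 2.99 and 3.04. Each of these 4 had a higher value in replicate 3 than in replicate 1, but over the 15 bound genes of the list 8 were higher in replicate 1 (median log2 ratio 0.05), near the share of all bound genes. Myc itself was near the median site, with 0.65, 1.26 and 1.19.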

How the data were processed

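The deposited files were peak lists of 3 biological replicates, their pool and the IDR list, on dm6. Lists on dm3 were not used here. The signal value of each peak is the authors' and has no stated unit. It was used within a list, or divided by a replicate's median. The caller, its version and the IDR cut-off were not given in the sources used here. Per the labels, chromatin was sonicated to 200 to 800 bp. Replicate lists hold called peaks, so a missing value means no peak within 200 bp. Genes and TSSs came from Ensembl release 115, and sequence from the NCBI Release 6 assembly. RRP1, peter, Nip7 and Tor could not be matched to 1 gene and were left out of the lists. Members and lists were chosen with earlier results of these data known. Named genes were the 12 strongest and 5 weakest bound members, unbound members, paralogs, members whose summit is nearer another gene, and the strongest regulators. RpS26, RpS19a and RpL26 in the replicate comparison, and Myc, were chosen after their values were seen. The values of 1 member, which stays in all counts, are not reported here. Paralogs were compared by exact sign-flip permutation over replicates, and nothing else was tested. Functions were tested on simulated data. Python 3.11.15, NumPy 2.4.6, pandas 2.3.3, SciPy 1.17.1 and Matplotlib 3.10.9 were used. Alternatives changed peak set, window, matching distance, motif window or replicates.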

Additional observations from a re-analysis of the deposited data

How the results depend on the processing

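The number of bound members was 59 among the 5344 strongest IDR summits (21.1% of all coding genes). It was 72 among the 8177 IDR summits matched to the 10688 strongest peaks of each of the 3 replicates (29.9%). With a window of 500 bp it was 76 (31.9%) and with 2000 bp 81 (41.9%). When the own TSS had to be nearest it was 72 (27.6%). The IDR list is the same set as the 10688 strongest pooled peaks, so that alternative changed nothing. The share bound among those 5344 was 70.4% of the large and 55.3% of the small subunit, and with 2000 bp 94.7% of the small subunit. To leave out 1 replicate, the IDR list was cut to summits matched among the 10688 strongest peaks of each other replicate. The list itself still rested on all 3 replicates. This gave 72 to 75 members bound (31.4% to 32.2% of all coding genes). The median position was −40 to −37 bp and the median relative signal 1.29 to 1.66. With a motif window of 50 bp the Maf half-site was at 20.2% of member summits and 26.4% of all promoter summits. In the same order, the E-box was at 5.50% and 1.51%, and the GAGA repeat at 3.67% and 14.8%. With 200 bp the half-site was at 50.5% and 60.5% and the repeat at 26.6% and 47.9%. Of the 6 motifs, the Maf core changed sides against all promoter summits in 5 of 8 alternatives, and the other 5 in none of them. RpL7-like over RpL7 had a log2 ratio of 0.03, which became −0.89 with 500 bp, 0.67 when all summits were summed, and −0.26 to 0.33 when 1 replicate was left out. RpS28b over RpS28a became −0.32 with 2000 bp. RpS14b over RpS14a became −0.11 when all summits were summed, and 0 with 2000 bp, where both genes take the same summit. The causes were not tested. With 1 group, no replicate block between groups could be fitted. The median log2 ratio of replicate 1 over 3 was 0.52 to 0.70 under 3 alternatives chosen after seeing the data. Unknown depth limits what the absence of a peak means.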
